A study of Mus musculus with 4 samples.

Results

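The genes described here are 9 of the 39 Hox genes of the mouse: Hoxa10, Hoxa11, Hoxc4, Hoxc5, Hoxc6, Hoxc8, Hoxc10, Hoxd3 and Hoxd8. Each had the midpoint of a called IRF2 peak within 5000 bp of either end of the gene in 1 of 2 libraries, and that distance chose them, so their number and their distances are given as a description with no test. IRF2 is an interferon regulatory factor, a DNA-binding protein, and the study used chromatin immunoprecipitation followed by sequencing (ChIP-seq) to ask where it binds in intestinal stem cells. Both IRF2 libraries came from small intestinal stem cells of Lgr5-EGFP-Ires-CreERT2 mice, in which a reporter and an inducible Cre were placed at the locus of the stem cell gene Lgr5. The cells had been prepared from 5 mice and frozen; which mice entered which library, whether animals were pooled, their age and any treatment are not stated in the labels. The libraries are called replicate 1 and replicate 2 in the order of the sample records, and the title of replicate 2 calls it ISC-rep1. The 2 input controls of the series, which carried no antibody, were not analysed here, so no enrichment over input is given and the libraries form 1 group.

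Hox genes encode homeodomain transcription factors that give segments along the head-to-tail axis their identity. In mammals they lie in 4 clusters, HoxA to HoxD, and within a cluster the order of the genes follows their order of use along the body, from paralog group 1 at the anterior end to group 13 at the posterior end. Their promoters are rich in CpG dinucleotides, and in tissues where a Hox gene is silent it is a classical target of Polycomb repression, while trithorax proteins keep active Hox genes open. In the gut, Hox genes together with the ParaHox gene Cdx2 are known for regional identity along the intestine.

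The authors called 380 peaks in replicate 1 and 238 in replicate 2. Each peak has a summit score, the authors' own whole number of unstated unit, which ran from 13 to 169 (median 22.5) in replicate 1 and from 10 to 80 (median 14) in replicate 2, and which is used here within its own list. Read depth is unknown, so a missing peak means no call and says nothing of binding too weak for the calling threshold. A peak list holds no expression, so the cell type could not be checked: none of 6 crypt base stem cell genes, 3 lymphocyte genes and 3 mesenchymal or endothelial genes had a peak within 5000 bp, and the nearest peak to Lgr5 was 4218 kb away.

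The 9 genes shared 6 peaks, and none of the 6 was called in both libraries. Replicate 2 held 5 of them, at 7 genes: Hoxc10, Hoxc8, Hoxc5, Hoxc6 and Hoxc4 on chromosome 15 and Hoxa11 and Hoxa10 on chromosome 6. Replicate 1 held 1, at Hoxd3 and Hoxd8 on chromosome 2. By cluster, 5 of 9 HoxC genes, 2 of 11 HoxA genes, 2 of 9 HoxD genes and 0 of 10 HoxB genes had a peak. Among all 21887 protein-coding genes, 1.43% had a peak within 5000 bp in either library, 0.795% in replicate 1 and 0.804% in replicate 2. The 9 of 39 Hox genes were picked from that same count, so nothing further is read from the difference. In 6 of the 9 genes the peak had that gene as its nearest protein-coding gene, while Hoxa10, Hoxc6 and Hoxd8 were counted through a peak that lay closer to a neighbour.

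**Figure D1:**
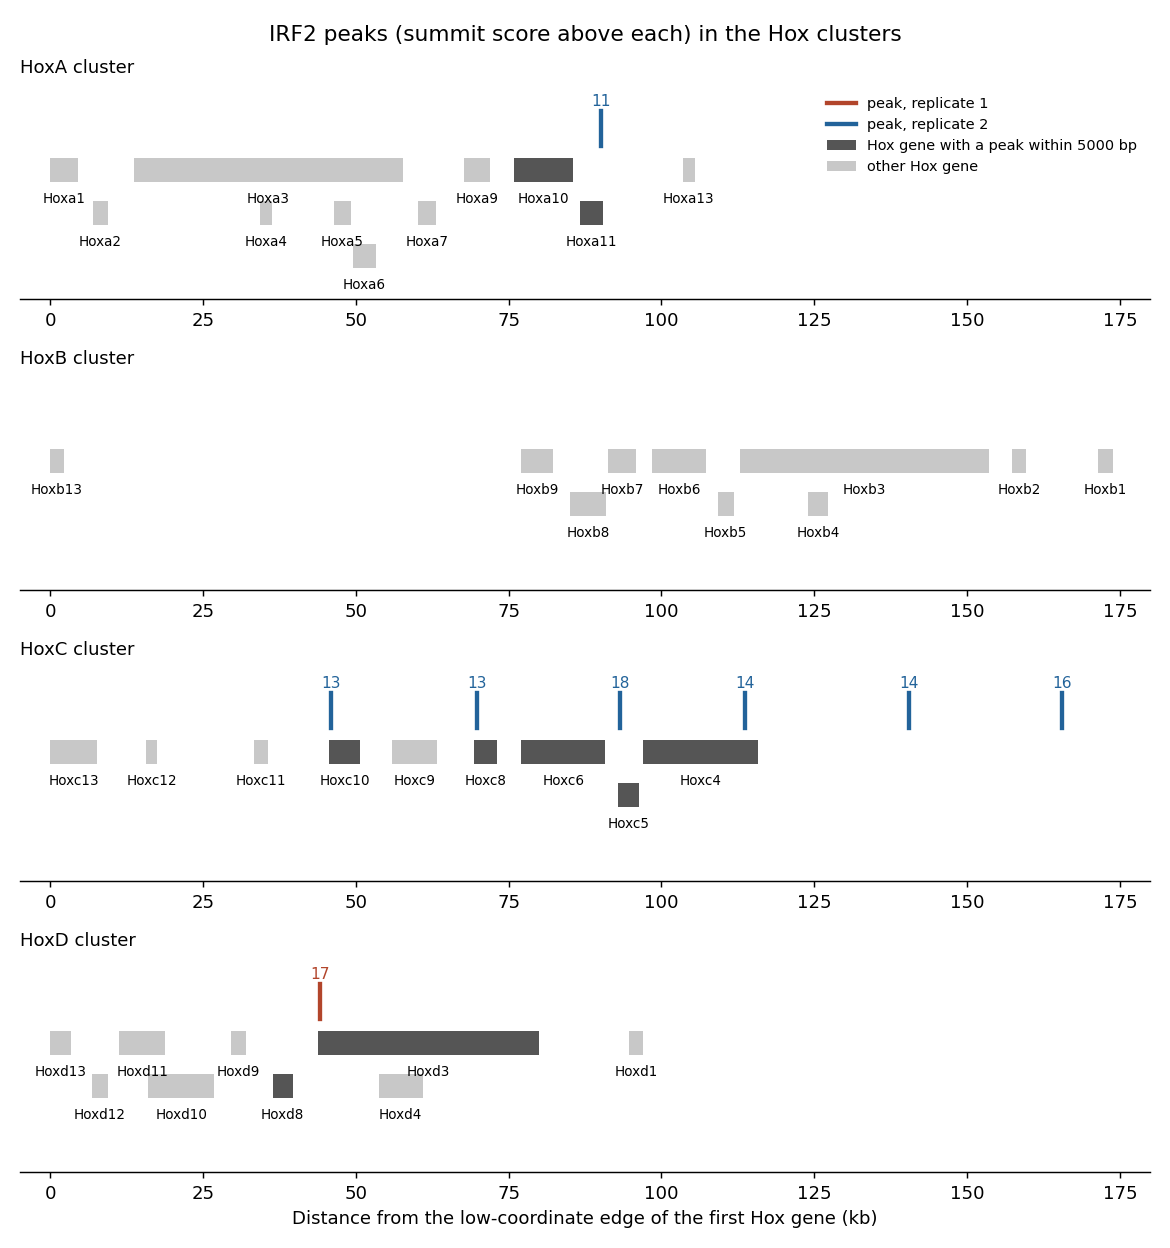
Map of the 4 Hox clusters, with distance in kb from the low-coordinate edge of the first Hox gene on the x axis; bars are genes (dark, the 9 genes with a peak within 5000 bp), and vertical strokes are peaks of replicate 1 (red) and replicate 2 (blue) with their summit score. The 4 blue strokes in HoxC and 2 beyond it, 1 blue stroke at Hoxa11 and 1 red stroke at the low-coordinate end of Hoxd3 are the peaks described in the text, and HoxB has none.

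Sequences are shown for the 3 genes with a peak beside a transcription start for which a promoter window was matched, so that the DNA next to each peak can be read. Windows of RefSeq (GRCm38.p6, the assembly underlying mm10) hold 250 bases before and 50 after a start, and 5 of the 9 genes (22 of the 39 Hox genes) matched. The 250 bases before the start are printed 5′ to 3′ on the gene's strand, with CpG dinucleotides in capitals. The Hoxa11 window is chr6:52245811-52246060 on the minus strand, with 13 CpG sites. The Hoxc4 window is chr15:103034145-103034394 on the plus strand, with 8, and the Hoxd3 window is chr2:74711743-74711992 on the plus strand, with 12.
Hoxa11: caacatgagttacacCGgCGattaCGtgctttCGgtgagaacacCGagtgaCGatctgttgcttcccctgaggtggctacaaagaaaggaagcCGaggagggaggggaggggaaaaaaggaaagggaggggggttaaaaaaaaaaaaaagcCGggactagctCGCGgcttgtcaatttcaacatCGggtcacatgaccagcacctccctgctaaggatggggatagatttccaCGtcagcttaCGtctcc
Hoxc4: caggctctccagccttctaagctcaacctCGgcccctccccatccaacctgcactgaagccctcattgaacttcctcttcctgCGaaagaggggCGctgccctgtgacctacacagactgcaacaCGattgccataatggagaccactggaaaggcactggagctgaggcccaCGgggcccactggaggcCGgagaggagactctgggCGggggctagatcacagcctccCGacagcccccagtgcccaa
Hoxd3: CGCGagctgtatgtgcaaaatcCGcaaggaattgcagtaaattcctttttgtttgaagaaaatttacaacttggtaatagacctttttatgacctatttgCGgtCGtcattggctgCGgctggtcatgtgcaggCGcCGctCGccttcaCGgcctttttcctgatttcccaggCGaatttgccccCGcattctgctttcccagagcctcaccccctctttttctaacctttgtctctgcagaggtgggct

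The HoxC cluster held 4 replicate 2 peaks, each with its midpoint inside a different gene. The midpoint was within 449 bp of an end at Hoxc10, Hoxc8 and Hoxc5, and 1979.5 bp from the nearer end at Hoxc4. Hoxc10, of the posterior paralog groups and known from hindlimb-level motor neurons, had a peak at chr15:102966823-102967445 with its midpoint 338 bp inside the low-coordinate end of the gene. Its summit score was 13, a value shared by 50 peaks of the list, with 136 of 238 peaks higher. Hoxc8, which patterns the thoracic skeleton and brachial motor neurons, had a peak at chr15:102990711-102991265, 449 bp inside its low-coordinate end and also with a score of 13.

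Hoxc5, of a middle paralog group, had the highest-scored and widest of the Hox peaks. It spanned chr15:103013944-103014747, 804 bp wide, with its midpoint 337.5 bp inside the low-coordinate end of the gene, and it reached across that end, which lies at 103014008. Its score of 18 was exceeded by 38 of 238 peaks of replicate 2. The same midpoint was 2463.5 bp outside the high-coordinate end of Hoxc6 and 3751.5 bp outside the low-coordinate end of Hoxc4, so 3 Hox genes were counted from this peak.

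Hoxc4, the most anterior gene of the cluster, also had a peak of its own at chr15:103034621-103035132, with a score of 14 and 106 of 238 peaks higher. The annotated span of Hoxc4 (chr15:103018097-103036856) takes in more than 1 transcript, and the start given for it in the promoter table is at 103034395, so the midpoint lay 481.5 bp after that start and 1979.5 bp from the high-coordinate end. The noncoding gene Gm30528 (chr15:103026807-103060555) also spans this midpoint. Hoxc6, whose peak is that of Hoxc5, had none nearer. Hoxc9, between Hoxc8 and Hoxc10, lay just outside the window, with the Hoxc8 peak 6544 bp from its high-coordinate end, and the remaining HoxC genes were at 10.4 kb (Hoxc11), 28.5 kb (Hoxc12) and 38.3 kb (Hoxc13) from a peak.

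The microRNA gene Mir615 lies inside Hoxc5 and was the single noncoding gene with an end within 5000 bp of a HoxC gene peak. Its mature products, on the plus strand, begin 179 bp (5p) and 222 bp (3p) past the high-coordinate edge of the Hoxc5 peak. They are printed because Mir615 is the annotated gene nearest to that peak after Hoxc5 itself, with the seed (bases 2 to 8) in capitals; the 2 seeds differ.
mmu-miR-615-5p: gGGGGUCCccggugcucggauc
mmu-miR-615-3p: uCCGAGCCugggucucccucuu

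The row of replicate 2 peaks went on past the cluster. A peak at chr15:103061520-103061888 (score 14) lay 24.8 kb beyond the high-coordinate end of Hoxc4 and 1149 bp outside the noncoding gene Gm30528, and another at chr15:103086396-103086788 (score 16) lay 49.7 kb beyond it. For both, Hoxc4 was the nearest protein-coding gene by its end. Together with the 4 at Hox genes they made 6 peaks in a row, with midpoints 23.9, 23.4, 20.5, 26.8 and 24.9 kb apart, and 6 of the 10 replicate 2 peaks of chromosome 15. The outer midpoints of the row were 119.5 kb apart, so a stretch of 120 kb, a length chosen after the peaks were seen, only just held it. No other stretch of that length held more than 3 midpoints in either list. The HoxC genes were chosen through 4 of these 6 peaks, so the comparison is a description and nothing further is read from it. In replicate 2 the next longest row was 3 peaks over the antigen presentation genes Psmb9, Tap1, Psmb8 and Tap2 on chromosome 17, with scores of 19, 21 and 19. In stretches of 60 kb the HoxC row counted 3 peaks, the same as that of chromosome 17, so that its length depends on the stretch used.

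Replicate 1 had no peak along this row. Its nearest midpoint was 23.1 Mb from the Hoxc10 peak. The list of replicate 1 is the longer one, and each list has 10 peaks on this chromosome. The length of a list does not give the read depth, which is unknown. At the chromosome 17 row, replicate 1 had 3 peaks as well, with scores of 41, 45 and 58, and all 3 overlapped those of replicate 2. In the whole lists, 55 of 380 replicate 1 peaks and 54 of 238 replicate 2 peaks overlapped a peak of the other library. None of the 6 Hox peaks did, but most peaks of both lists did not either, so nothing is read from that. Which of the library, the mice or the depth a call in 1 list moves with cannot be told apart with 1 library on each side.

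In HoxA, the peak lay at Hoxa11, known from forearm and uterine development. It spanned chr6:52245278-52245722, with the midpoint 310 bp inside the high-coordinate end, where the start at 52245810 lies on the minus strand, so that it was 310 bp after the start. Its score of 11 was among the lowest of replicate 2, with 220 of 238 peaks higher and 6 lower. Hoxa10, its neighbour and a regulator of lumbar and uterine identity, was counted from the same peak, which lay 4646 bp outside its high-coordinate end and 4646 bp before its start. The antisense transcript Hoxa11os, on the plus strand, overlaps this position, and the midpoint lay 257 bp after the Hoxa11os start. The promoter window of Hoxa11os shared 15 bases with the peak. The noncoding LOC115490410 had an end 987 bp away. Peaks carry no strand, so the peak cannot be given to either Hoxa11 or Hoxa11os. Outside the window were Hoxa13 at 13.4 kb and Hoxa9 at 18.1 kb. Replicate 1 had its nearest peak 0.7 Mb away.

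In HoxD, replicate 1 had its single Hox peak at chr2:74712111-74712522, 412 bp wide. The midpoint lay 323.5 bp inside Hoxd3, a regulator of the cervical vertebrae, and 323.5 bp after the start of that gene on the plus strand. Its score was 17, a value shared by 33 peaks, with 309 of 380 higher. Hoxd8 was counted from the same peak, 4383.5 bp outside its high-coordinate end and 7701.5 bp after its start. The noncoding genes Gm38462 and Hoxd3os1 were also within 5000 bp. Gm38462 has a start at 74712058 on the minus strand, so the midpoint lay 258.5 bp before that start, and Hoxd3os1 spans the midpoint. Without a strand, the peak cannot be given to any 1 of these genes. Outside the window were Hoxd4 at 9661.5 bp, Hoxd9 at 12.1 kb and Hoxd10 at 17.2 kb. The nearest replicate 2 peak was 14.7 Mb away.

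Apart from that at Hoxc5, the Hox peaks scored at or below the median of their own list. In replicate 2 the scores of the 5 Hox peaks were 18, 14, 13, 13 and 11, with a median of 13, against a list median of 14. Their widths ran from 445 to 804 bp with a median of 555, against a list median of 545 bp (interquartile range 462 to 646). In replicate 1 the Hoxd3 peak, at 412 bp, was narrower than 267 of 380. In order of score and then position, the peaks beside Hoxc5 in its list, all with the same score of 18, were nearest to Mrps7, Fam120a and Triobp before it and to Gm10499, Ptprm and Psd2 after it. Those beside Hoxd3, all with a score of 17, were nearest to Pard3b, Hes6 and Acvr1c before it and to Frmd5, D3Ertd751e and Pdgfc after it. Such ties run through both lists, so a rank of a Hox peak is a range and not a place. Among replicate 2 summits, 226 of 238 stood on deposited positions divisible by 16, and those at Hoxc10 and Hoxc8 were 2 of the 12 that did not.

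**Figure D2:**
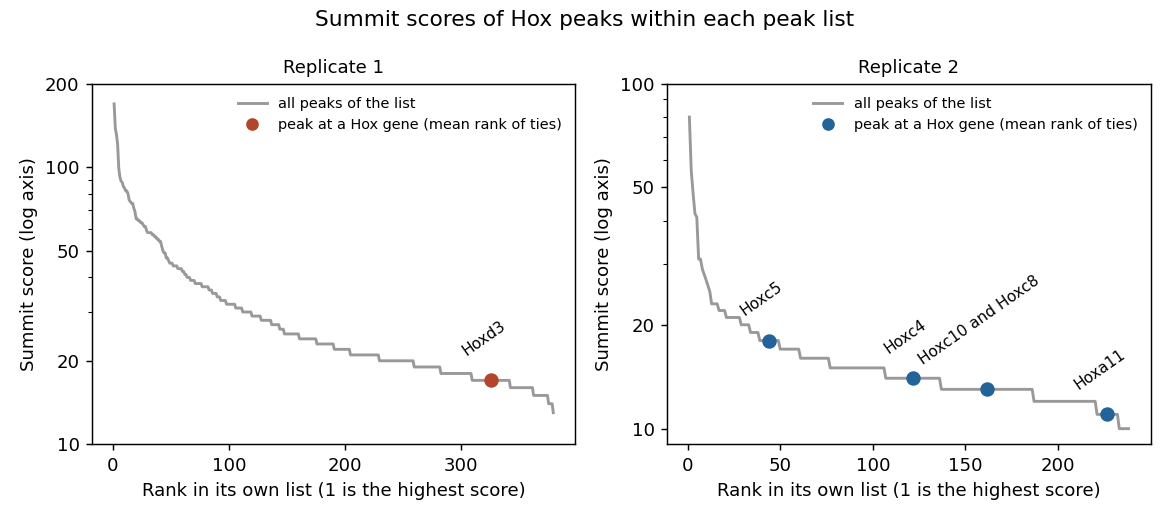
Summit score (log axis) against rank in each library's own peak list, with rank 1 the highest score; the grey line is all 380 peaks of replicate 1 (left) or all 238 of replicate 2 (right), and points are peaks at Hox genes, placed at the mean rank of their ties. Hoxc5 lies at rank 44 of replicate 2, Hoxc4 at 121.5, Hoxc10 and Hoxc8 at 161.5 and Hoxa11 at 226.5, and Hoxd3 lies at rank 326 of replicate 1.

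Each of the 6 peaks had its midpoint inside its nearest protein-coding gene. At Hoxa11 and Hoxd3 a noncoding gene had a nearer end, Hoxa11os at 257 bp and Gm38462 at 258.5 bp. Measured from the nearer end of the Hox gene, the midpoint lay at 310 bp (Hoxa11), 323.5 bp (Hoxd3, the single replicate 1 peak), 337.5 bp (Hoxc5), 338 bp (Hoxc10), 449 bp (Hoxc8) and 1979.5 bp (Hoxc4), so Hoxc4 stood apart on this measure. These distances were used to choose the genes and are a description. For Hoxa11, Hoxd3 and Hoxc4 the table gives a strand, and these 3 peaks were downstream of the start of that Hox gene. No start was matched for Hoxc5, Hoxc8 and Hoxc10. The window of 5000 bp chose the genes by distance, but not by side. Of all protein-coding genes, 0.425% in replicate 1, 0.521% in replicate 2 and 0.845% in either had a midpoint within 1000 bp of an end, as did Hoxa11, Hoxd3, Hoxc5, Hoxc10 and Hoxc8. Among non-Hox peaks that close to an end, 71 of 87 in replicate 1 (81.6%, 95% Wilson interval 72.2 to 88.4) and 79 of 100 in replicate 2 (79%, 70.02 to 85.8) lay inside the gene. Over those non-Hox peaks on either side, the median distance from the end was 380 and 343 bp. The 5 Hox peaks within that distance lay on the same side as most gene-end peaks of both libraries. The intervals cover counting error only.

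**Figure D3:**
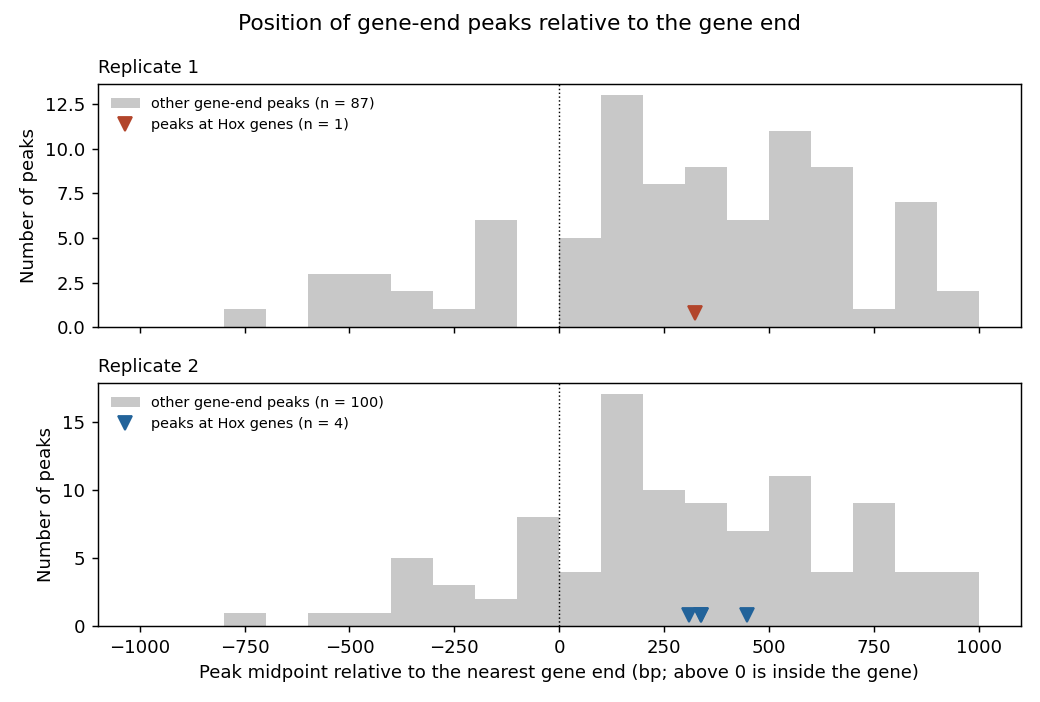
Number of peaks (y axis) by the position of the midpoint relative to the nearest protein-coding gene end in bp (x axis, above 0 inside the gene), in bins of 100 bp, for peaks within 1000 bp of an end; triangles mark peaks at Hox genes (Hoxd3 in replicate 1; Hoxa11, Hoxc5, Hoxc10 and Hoxc8 in replicate 2, those of Hoxc5 and Hoxc10 overlying each other). The triangles lie between 310 and 449 bp inside the gene, within the range of the grey bars.

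The DNA letters recognised by interferon regulatory factors were searched for in the promoter windows, on both strands. The paired GAAA motif (GAAA, any 2 bases, GAAA) was in none of the 24 windows of 22 Hox genes, those of the 5 matched genes included, against 1131 of all 32851 windows (3.44%). The shorter AANNGAAA, which is contained in it, was in 2 of the 6 windows of genes with a peak (Hoxa11 and Hoxd8), in 1 of 18 windows of other Hox genes (Hoxd11), and in 7857 of all windows (23.9%). These are letters in a window, not sites, and the peaks at Hoxa11, Hoxc4 and Hoxd3 lay outside the windows of those genes. The match of Hoxa11 begins 135 bases before its start and is shown within 30 bases of chr6:52245927-52245956 (minus strand), and the nearer of both matches of Hoxd8 begins 12 bases before its start, at chr2:74704585-74704614 (plus strand); capitals mark the match.
Hoxa11 match: gggaggggaaaAAAGGAAAgggaggggggt
Hoxd8 match: taagaaatgcaaaaagaaAAAGGAAAaaaa

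In 1 case a window reached a summit. The promoter window of Gm38462, which is read from the opposite strand to Hoxd3, held 198 of the 412 bases of the Hoxd3 peak, its summit included. The summit was deposited as 74712288, and this position was not shifted by the 1 base added here to peak starts. Those 198 bases had 69.7% G and C and 18 CpG dinucleotides, a CpG frequency of 0.77 of that expected from base composition, and no match to either motif. The 30 bases around the summit, chr2:74712273-74712302 on the plus strand, are shown with CpG in capitals.
Hoxd3 summit: cagccacagtcCGggcCGacCGccCGcagt

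The windows under peaks of the whole lists give the setting for the Hox peaks, each of which was called in 1 library. The paired GAAA motif was in 14 of 48 windows overlapped by a replicate 1 peak alone (29.2%, 95% Wilson interval 18.2 to 43.2) and in 9 of 25 overlapped by peaks of both libraries (36%, 20.2 to 55.5). It was in 1 of 61 overlapped by a replicate 2 peak alone (1.64%, 0.29 to 8.72), beside 3.44% of all windows. Of the 6 Hox peaks, 5 were called in replicate 2 alone, and those at Hoxa11 and Hoxc4 did not reach the window of their own gene. The sequence of these 5 peaks could not be read outside promoter windows, so whether they hold the motif is not known. AANNGAAA was in 24 of 48, 14 of 25 and 9 of 61 of the same classes (50%, 56% and 14.8%), beside 23.9% of all. Windows of facing genes can share bases, so they are not independent, and no test was made.

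CpG content ran the other way. The median ratio of observed to expected CpG was 0.82 in windows overlapped by a replicate 2 peak alone, 0.68 with a replicate 1 peak alone, 0.61 with both and 0.38 in all windows. Among Hox genes with a peak it was 0.92 for Hoxd3, 0.79 for Hoxa11, 0.37 for Hoxd8 and 0.33 for Hoxc4, and 0.85 and 0.60 for the 2 windows of Hoxa10. No peak overlapped any of these 6 windows, so they are not DNA under a peak. The Hoxd3 peak overlapped a window of Gm38462 (ratio 0.90, 198 bases shared) and the Hoxa11 peak that of Hoxa11os (1.11, 15 bases shared). The 6 windows of Hox genes with a peak had a median of 0.69 and the 18 windows of other Hox genes a median of 0.62, so Hox genes with and without a peak covered much the same range. G and C made up a median of 54.2% of the former and 60.5% of the latter.

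**Figure D4:**
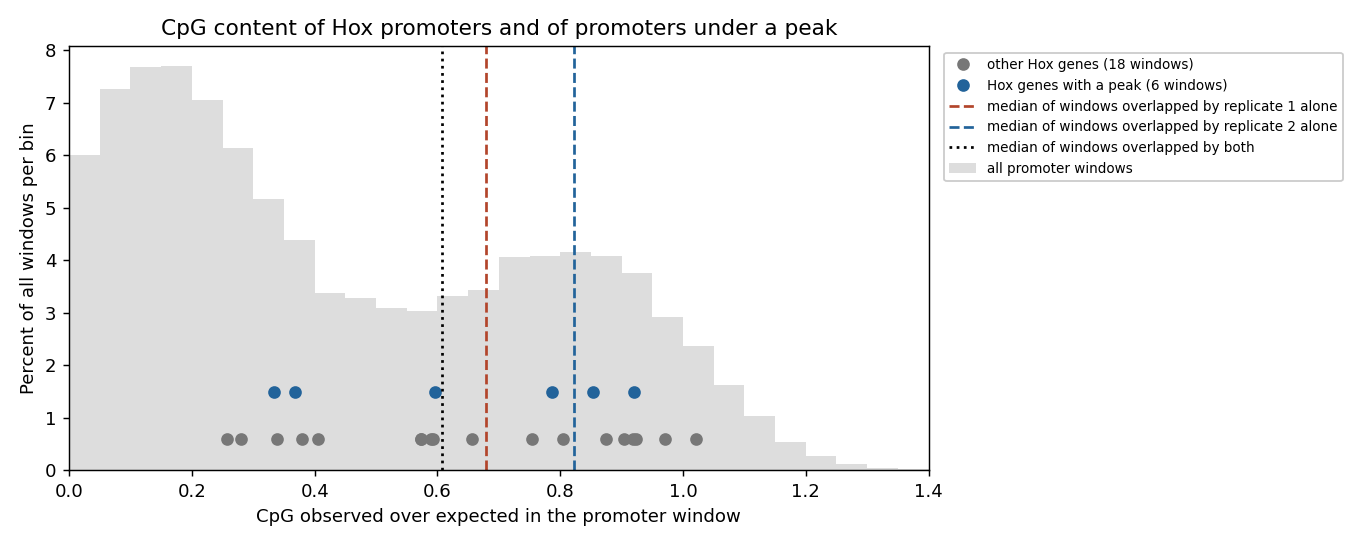
Ratio of observed to expected CpG in promoter windows of 300 bases (x axis); grey bars give the percent of all windows per bin of 0.05 (y axis), points at arbitrary height are windows of Hox genes with (blue) and without (grey) a peak, and lines are medians of windows overlapped by peaks. The 6 blue points span 0.33 to 0.92, the range of most grey points, and none of their windows was overlapped by a peak. The line of replicate 2 alone lies furthest to the right at 0.82.

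Genes that act with or on Hox genes were counted in the same way, beside 1.43% of all genes with a peak within 5000 bp in either library. Of 9 TALE homeodomain cofactors, which bind DNA together with Hox proteins, 1 (11.1%) had a peak within 5000 bp: Pbx3, with a replicate 2 peak (score 14) 759 bp inside an end. Of 25 Polycomb genes 1 (4%) did, Suz12, a core subunit of the complex that methylates histone H3 at silent Hox genes, with a replicate 2 peak (score 16) 112 bp inside an end. Of 15 trithorax and boundary genes 2 (13.3%) did, both in replicate 2: Ctcf, which binds between active and silent Hox domains (score 12, 664.5 bp), and the cohesin subunit Rad21 (score 13, 2377 bp). These shares were above 1.43%, but each rests on 1 or 2 genes, and no list was tested.

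None of the 6 ParaHox genes, Cdx1 and Cdx2 among them, had a peak within 5000 bp. Of 15 gut regional factors 2 (13.3%) did, both in replicate 1: Gata6, with 2 peaks (score 20 each) 1711.5 and 2806.5 bp inside an end, and Foxa1 (score 27, 2294 bp). Among 82 other homeobox genes 3 had one (3.66%): Gbx2 and Six4 in replicate 2 (scores 14 and 15, at 278.5 and 1565 bp) and Alx4 in both libraries (27 in replicate 1 and 13 in replicate 2, at 3580 and 3662 bp). Alx4 was thus called in both lists at nearly the same place, which none of the Hox genes was.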

How the data were processed

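ChIP-seq peak lists of 2 IRF2 libraries were used, grouped by the antibody label and numbered in the order of the sample records. Reads were aligned with BWA 0.7.12 to mm10, and MACS called the peaks, per the submitters' processing notes. For the MACS version, its thresholds and read depth, values were not given in the sources used here. Calls were made in each library by itself, per the file headers, and the summit score is the authors' deposited value. The replicate 2 deposit also held 380 peaks identical to those of replicate 1, which were counted once.

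Each peak's midpoint was compared with both ends of the 21887 protein-coding genes of RefSeq GRCm38.p6 on chromosomes 1 to 19, X and Y. Starts, strands and promoter letters came from the RefSeq promoter windows. Named genes followed a rule: the 9 genes, other Hox genes within 25000 bp, genes within 5000 bp of their peaks, peaks next in score, and members of the lists with a peak. The genes, lists and rule were chosen with earlier results of these data known. The assignment of peaks to genes was tested on simulated data. Python 3.11.15, numpy 2.4.6 and scipy 1.17.1 were used.

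No test was made, since the genes were chosen from these peaks and the libraries form 1 group. Separate cultures or animals are not stated for the libraries. Alternatives were other windows, either library alone, the higher-scored 50% of each list, interval overlap, the start alone, the nearest gene, merging within 500 bp and other overlaps.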

Additional observations from a re-analysis of the deposited data

How the results depend on the processing

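The number of Hox genes with a peak was 9, and it was 5 with a window of 1000 bp, 16 with 25000 bp, 3 with the higher-scored 50% of each list (ties kept), 4 from transcription starts alone, which 22 of 39 Hox genes had, and between 2 and 7 with 1 library left out (2 without replicate 2). In replicate 1 by itself the number was 2, and it was 1, 5 and 0 with the windows of 1000 and 25000 bp and the higher-scored 50%. In replicate 2 by itself it was 7, and it was 4, 11 and 3. Among all protein-coding genes, 1.43% had a peak in either library with 5000 bp and 0.845% with 1000 bp. That share was not counted for 25000 bp, the higher-scored 50% or starts alone. With ties, the higher-scored 50% of replicate 2 held 136 of 238 peaks, down to a score of 14, which is that of Hoxc4. The 6 distinct peaks became 2 with the higher-scored 50%, those at Hoxc5 and Hoxc4. The other 10 of 22 alternatives fixed in the plan stayed within 1.5 times, among them 0 peaks shared by both libraries under each overlap tried. For the HoxC row of 6 peaks, other stretch lengths were added after seeing the data and gave 3 peaks with 60 kb and 6 with 240 kb. No paired analysis was possible because both IRF2 libraries belong to 1 group. Without read depths, what depth limits cannot be given as a number.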
